A study of Rattus norvegicus with 16 samples.

Results

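Cyp1a1 and Cyp1a2 encode the 2 cytochrome P450 enzymes of the rat Cyp1a subfamily. Every probe set whose annotated gene symbol field held Cyp1a1 or Cyp1a2 was taken, which gave 4 of the 8740 probe sets on the array, 1 for Cyp1a1 and 3 for Cyp1a2, that is 2 of 4736 genes named by a probe set with a single symbol. None of them carried several symbols. The genes were chosen because earlier results on these arrays showed a response to oltipraz opposite to that of related compounds, so their levels against vehicle and against oltipraz are given as a description without a test.

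Liver RNA of 16 male F344 rats was measured, with 4 arrays in each of the groups D3T, OLT, TBD and vehicle. F344 is an inbred rat strain, and the animals were 6 weeks old on arrival, were assigned at random and were housed singly. All compound groups received 0.3 mmol/kg by gavage, 3 doses on alternate days over 5 days, and liver was taken 24 h after the last dose. D3T is the dithiolethione ring without a substituent, OLT (oltipraz) carries a methyl and a pyrazinyl group on that ring, while TBD has a tert-butyl substituent. The remaining animals received sucrose vehicle by the protocol, although their samples are titled as without treatment. There was 1 dose and 1 time per compound, so no dose or time course can be read from these values. Values are log2 expression values, and 1 unit is a factor of 2.

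CYP1A enzymes oxidise flat aromatic compounds, among them drugs, caffeine, aromatic amines and polycyclic hydrocarbons. CYP1A2 is expressed constitutively in the liver, mostly in hepatocytes around the central vein, while CYP1A1 is low in untreated liver and is strongly induced by ligands of the aryl hydrocarbon receptor (AhR). The liganded receptor pairs with ARNT and binds xenobiotic response elements near its target genes. Dithiolethiones are best known for activating NRF2, a transcription factor that binds antioxidant response elements. Cyp1a1 and Cyp1a2 are neighbours on rat chromosome 8, with 0 genes listed between them in the GRCr8 annotation.

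The stretch directly upstream of Cyp1a2 is shown because the opposite response below was measured for this gene. It covers the 250 bases before the RefSeq start, GRCr8 chr8:66978150-66978399, on the minus strand, written in the direction of transcription. Capitals mark a TATA box and a nuclear receptor half-site.
Cyp1a2 upstream: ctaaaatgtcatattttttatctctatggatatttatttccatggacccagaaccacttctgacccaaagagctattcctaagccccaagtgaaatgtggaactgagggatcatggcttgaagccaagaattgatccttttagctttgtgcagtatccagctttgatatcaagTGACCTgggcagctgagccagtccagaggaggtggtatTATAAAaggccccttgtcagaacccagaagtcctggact
The TATA box (TATAAA, both strands searched) lay 39 bases before the start and the half-site (AGGTCA, here read as TGACCT on the written strand) 77 bases before it. A TATAAA match was present in 14.22% and an AGGTCA match in 16.18% of 33469 rat promoter windows of 300 bases. The core of the xenobiotic response element (GCGTG) had 0 matches on either strand, against a match in 29.7% of windows, and the antioxidant response element core (TGACNNNGC) had 0 matches, against 12.06%. The 2 matches in the window did not overlap. These letters describe the window and nothing about binding elsewhere.

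All 3 Cyp1a2 probe sets were higher in OLT livers and lower in D3T and TBD livers than in vehicle livers. The Cyp1a1 probe set did not show this pattern, but it lay near background in vehicle livers, where a fall could not be seen. The opposite response is therefore described for Cyp1a2 only. Cyp1a2 lay 1.70 to 2.59-fold above vehicle with OLT, 4.48 to 9.47-fold below it with D3T and 3.40 to 5.95-fold below it with TBD, depending on the probe set. In bulk liver, fewer cells expressing a gene and less RNA per cell cannot be told apart.

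The Cyp1a2 probe set with the highest mean, M26127_s_at, had log2 values of 9.03, 9.58, 9.42 and 8.11 in D3T livers, of 12.11, 11.77, 12.29 and 11.80 in OLT livers, of 9.31, 9.36, 9.36 and 9.84 in TBD livers, and of 11.65, 11.26, 11.37 and 10.65 in vehicle livers. No array of any compound group overlapped the vehicle arrays, and the narrowest gap was that of OLT, whose lowest array lay 0.13 above the highest vehicle array. The means were 9.03 ± 0.66 for D3T, 12.00 ± 0.25 for OLT, 9.46 ± 0.25 for TBD and 11.23 ± 0.42 for vehicle (SD, n = 4 each). The difference from vehicle was -2.20 ± 0.28 with D3T, 0.77 ± 0.28 with OLT and -1.76 ± 0.28 with TBD (log2 ± SE of the fit), which corresponds to 4.58-fold lower, 1.70-fold higher and 3.40-fold lower. The OLT difference was the smallest of these and ranged between 0.57 without vehicle replicate 4 and 0.91 without vehicle replicate 1.

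The probe set E01184cds_s_at had log2 values of 8.74, 9.02, 8.99 and 7.73 in D3T livers, of 12.53, 11.82, 12.28 and 12.00 in OLT livers, of 8.69, 8.32, 9.21 and 9.23 in TBD livers, and of 10.93, 10.94, 10.65 and 10.62 in vehicle livers. The compound arrays again did not overlap the vehicle arrays, and here the lowest OLT array lay 0.88 above the highest vehicle array. Differences from vehicle were -2.16 ± 0.27 with D3T, 1.37 ± 0.27 with OLT and -1.92 ± 0.27 with TBD, that is 4.48-fold lower, 2.59-fold higher and 3.79-fold lower.

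The probe set K03241cds_s_at had log2 values of 6.67, 8.48, 6.16 and 5.88 in D3T livers, of 11.77, 10.92, 11.39 and 11.02 in OLT livers, of 7.10, 6.70, 7.62 and 8.43 in TBD livers, and of 9.99, 10.17, 9.85 and 10.14 in vehicle livers. The groups were apart as before, while the spread within the D3T and TBD groups (SD 1.17 and 0.75) was wider than within OLT and vehicle (SD 0.39 and 0.15). Differences from vehicle were -3.24 ± 0.47 with D3T, 1.24 ± 0.47 with OLT and -2.57 ± 0.47 with TBD, that is 9.47-fold lower, 2.36-fold higher and 5.95-fold lower. The sizes of the differences thus varied between probe sets, and the directions did not.

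**Figure D1:**
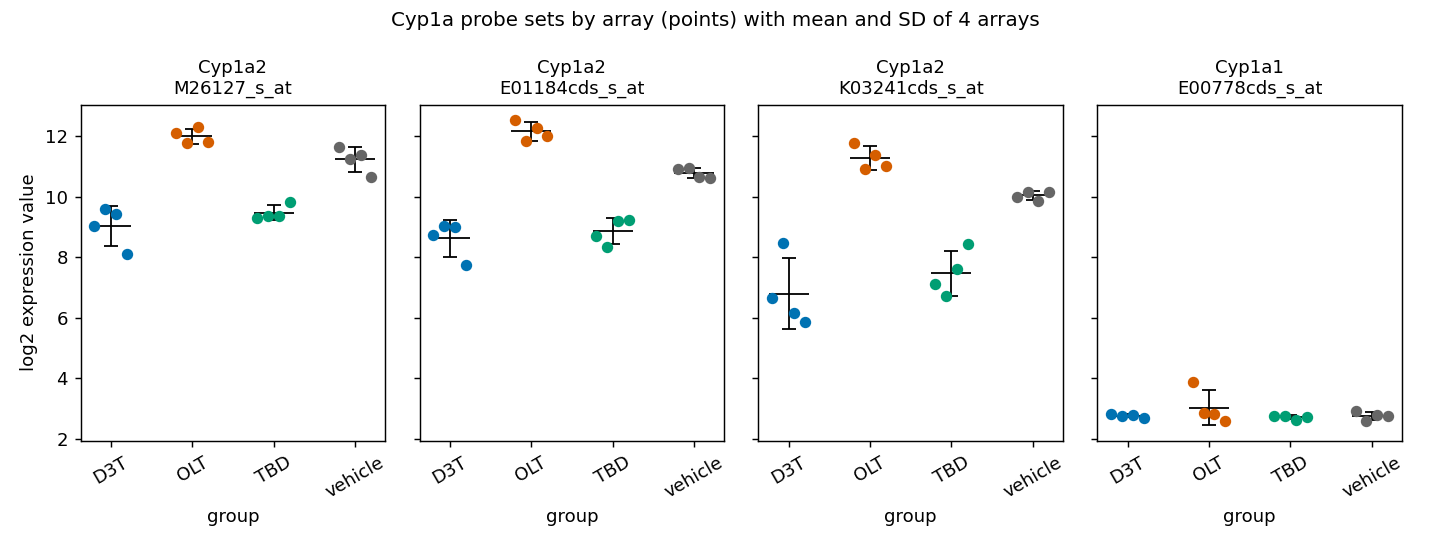
Log2 expression value of each array (points) with the mean and SD of 4 arrays, for the 3 Cyp1a2 probe sets and the Cyp1a1 probe set in D3T, OLT, TBD and vehicle livers. In each Cyp1a2 panel the OLT arrays lie above and the D3T and TBD arrays below all vehicle arrays, and in the Cyp1a1 panel every group but 1 OLT array lies between 2.58 and 2.93.

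Across all 5323 probe sets bright enough to be tested, 4.88% had every OLT array above every vehicle array, 15.8% had every D3T array below and 10.3% every TBD array below. The combination of the 3 was met by 3 probe sets (0.0564%), which were the 3 Cyp1a2 probe sets. The genes were chosen for this pattern, and the Cyp1a2 probe sets measure 1 gene, so this is a count and not a test.

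Between compounds at the same dose and time, Cyp1a2 was lower with D3T than with OLT by 7.79-fold on M26127_s_at, 11.6-fold on E01184cds_s_at and 22.3-fold on K03241cds_s_at. TBD livers were lower than OLT livers by 5.78-fold, 9.81-fold and 14.0-fold on the same probe sets. None of these groups overlapped, against 4.04% of tested probe sets lower without overlap for D3T against OLT and 0.77% for TBD against OLT. The choice of these genes rested on both contrasts, and no p is given for them.

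D3T against TBD, the ring without a substituent against the ring with a tert-butyl group, was the contrast that the choice did not use, although it shares arrays with those that it did, and it was tested. Of the 3 compound pairs it is the one with a p for Cyp1a2, adjusted over all 5323 probe sets, of which 0.658% passed. The difference was -0.43 ± 0.28 on M26127_s_at (95% interval -1.03 to 0.17, limma adjusted p = 0.619), -0.24 ± 0.27 on E01184cds_s_at (-0.82 to 0.34, adjusted p = 0.751) and -0.67 ± 0.47 on K03241cds_s_at (-1.68 to 0.34, adjusted p = 0.643). A difference between D3T and TBD was not detectable with these 4 arrays each, and the widest interval, that of K03241cds_s_at, allows D3T levels of 0.313 to 1.26 times those of TBD. On E01184cds_s_at the sign turned to 0.05 without D3T replicate 4.

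Several arrays deviated from their group mean in the same direction on all 3 Cyp1a2 probe sets. D3T replicate 4 was the lowest D3T array on all 3 and D3T replicate 2 the highest. OLT replicate 2 was the lowest OLT array and TBD replicate 4 the highest TBD array on all 3. Over 16 arrays the probe sets correlated in pairs at r of 0.959 to 0.976, and after removal of the group means at r of 0.568 to 0.791. The probe sets share the animals, the arrays and the transcript, so this describes their likeness and is no replication.

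**Figure D2:**
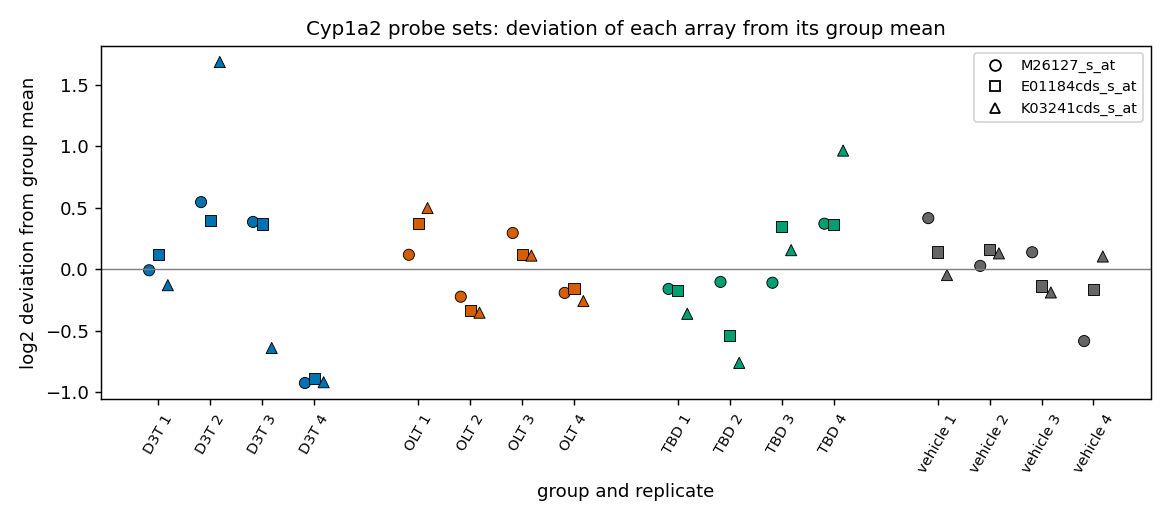
Deviation of each array from its group mean on the log2 scale for the 3 Cyp1a2 probe sets (marker shapes), by group and replicate. D3T replicate 4 lies below 0 and TBD replicate 4 above 0 on every probe set, and K03241cds_s_at in D3T replicate 2 has the largest deviation.

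Cyp1a1 was represented by E00778cds_s_at, which was too dim to be tested. Its log2 values were 2.83, 2.75, 2.79 and 2.71 in D3T livers, 3.89, 2.85, 2.82 and 2.58 in OLT livers, 2.77, 2.78, 2.64 and 2.74 in TBD livers, and 2.93, 2.60, 2.81 and 2.75 in vehicle livers. It rose above its array's median in OLT replicate 1 alone, and the groups overlapped in every comparison. The OLT mean exceeded the vehicle mean by 0.27, and without OLT replicate 1 it lay 0.02 below it (-0.02). Values this near background have no dependable fold, and a change of Cyp1a1 below the array's detection was not measurable.

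No other tested AhR target gene had OLT arrays above and D3T and TBD arrays below all vehicle arrays. Of 20 other AhR target genes, 7 were tested, 2 were too dim (Aldh3a1 and Slc7a5), 3 had probe sets with several symbols and 8 had no probe set in the annotation used here. Of the 7, 3 rose with D3T, 2 with OLT and 3 with TBD, and 0 fell, against 4.61%, 2.61% and 2.8% of 3103 genes that rose and 13.1%, 8.93% and 9.99% that fell. The median difference of the 7 was 0.18 with D3T, 0.31 with OLT and 0.24 with TBD, against 0.04, -0.03 and -0.02 over all tested probe sets. The genes that rose (Nqo1, Gsta3 and Ephx1) are also known NRF2 targets, so they do not report on AhR alone.

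Ephx1, a microsomal epoxide hydrolase, had log2 values of 12.65 to 13.23 in D3T livers, 12.49 to 13.13 in OLT livers, 12.36 to 13.24 in TBD livers and 11.12 to 11.34 in vehicle livers. It was 3.37-fold, 3.27-fold and 3.20-fold higher than vehicle with D3T, OLT and TBD (limma adjusted p = 3.69e-05, 8.54e-05 and 8.89e-05). Ephx1 thus rose by a similar factor with all 3 compounds, unlike Cyp1a2. Gsta3, a glutathione transferase, averaged 11.50 ± 0.42 with D3T, 10.28 ± 1.05 with OLT and 10.74 ± 0.77 with TBD, against 3.20 ± 0.15 in vehicle livers, which is near background and gives no dependable fold (adjusted p = 4.87e-08, 6.09e-07 and 3.69e-07). On another Gsta3 probe set, rc_AA945082_at, the differences were 2.26, 2.04 and 2.20, and the adjusted p was 0.042 with D3T, 0.0873 with OLT and 0.0603 with TBD. Nqo1, a quinone reductase, differed from vehicle by 3.62 ± 0.69 with D3T (adjusted p = 0.00226), by 2.16 ± 0.69 with OLT (adjusted p = 0.0581) and by 2.58 ± 0.69 with TBD (adjusted p = 0.0228). The Nqo1 call with TBD was lost without vehicle replicate 2 or 4 or TBD replicate 2 (adjusted p = 0.0597, 0.0623 and 0.0678). It was also lost in a limma fit of the 8 TBD and vehicle arrays (adjusted p = 0.0916). With OLT a call was gained without OLT replicate 2, TBD replicate 1 or TBD replicate 4 (adjusted p = 0.0375, 0.00889 and 0.0248). An intensity trend, array weights and a fit of the 8 OLT and vehicle arrays also gave the OLT call (limma adjusted p = 0.0483, 0.01 and 0.0178).

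The other tested targets did not pass against vehicle on their brightest probe set, and between compounds 0 of the 7 passed. Over all 3103 genes, which leave out Cyp1a2, 0.29% were higher and 0.548% lower for D3T against OLT, and 0% passed for TBD against OLT. For D3T against TBD 0.193% were higher and 0.387% lower, so 0 of 7 lies near these shares. At an unadjusted p under 0.05, 2 differed between D3T and OLT, 0 between TBD and OLT and 1 between D3T and TBD. A dimmer probe set of Exoc3, U32575_at, differed from vehicle by -0.52 with D3T, -0.49 with OLT and -0.54 with TBD (limma adjusted p = 0.0436, 0.0783 and 0.0477). Cyp1b1, the other member of the Cyp1 family on the array, differed from vehicle by 0.18 with D3T, 0.02 with OLT and 0.09 with TBD. Its differences stayed near 0 in all 3 groups. Its log2 values of 3.64 to 4.11 lay little above the array medians of 3.27 to 3.58, so a response could have gone unseen.

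The receptor and its partners are the proteins through which AhR ligands act. Of 17 genes of the AhR complex and its cofactors, 6 were tested. On the brightest probe set of each gene 0 passed with any compound in limma. Over all 3103 genes 4.61% rose and 13.1% fell with D3T, 2.61% and 8.93% with OLT, and 2.8% and 9.99% with TBD. At these shares 0 of 6 says little about the complex. On another probe set of the chaperone Hsp90ab1, rc_AI008074_s_at, the differences were 1.29 with D3T, 1.25 with OLT and 1.10 with TBD (adjusted p = 0.0263, 0.0447 and 0.068). At an unadjusted p under 0.05 the counts were 1 with D3T, 1 with OLT and 0 with TBD, and without OLT replicate 1 the adjusted count with D3T was 1. Ahr differed from vehicle by 0.12 ± 0.10 with D3T, -0.03 ± 0.10 with OLT and -0.01 ± 0.10 with TBD (adjusted p = 0.442, 0.981 and 1). Ahr was dim, lying below the array's median on 9 of 16 arrays, and the sign of its OLT and TBD differences changed under other scalings. With each array's 40th percentile as a covariate its D3T difference passed, at 0.08 (limma adjusted p = 0.011). Arnt2 lay below the array's median on 16 of 16 arrays, and Sp1, at 3.40 to 3.83, lay little above it. Arnt, the receptor's partner, differed by 0.21, 0.32 and 0.28 (± 0.17, adjusted p = 0.436, 0.285 and 0.348). With array weights Arnt passed with all 3 compounds, at 0.73, 0.89 and 0.82 (adjusted p = 0.000259, 0.00245 and 0.00142).

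**Figure D3:**
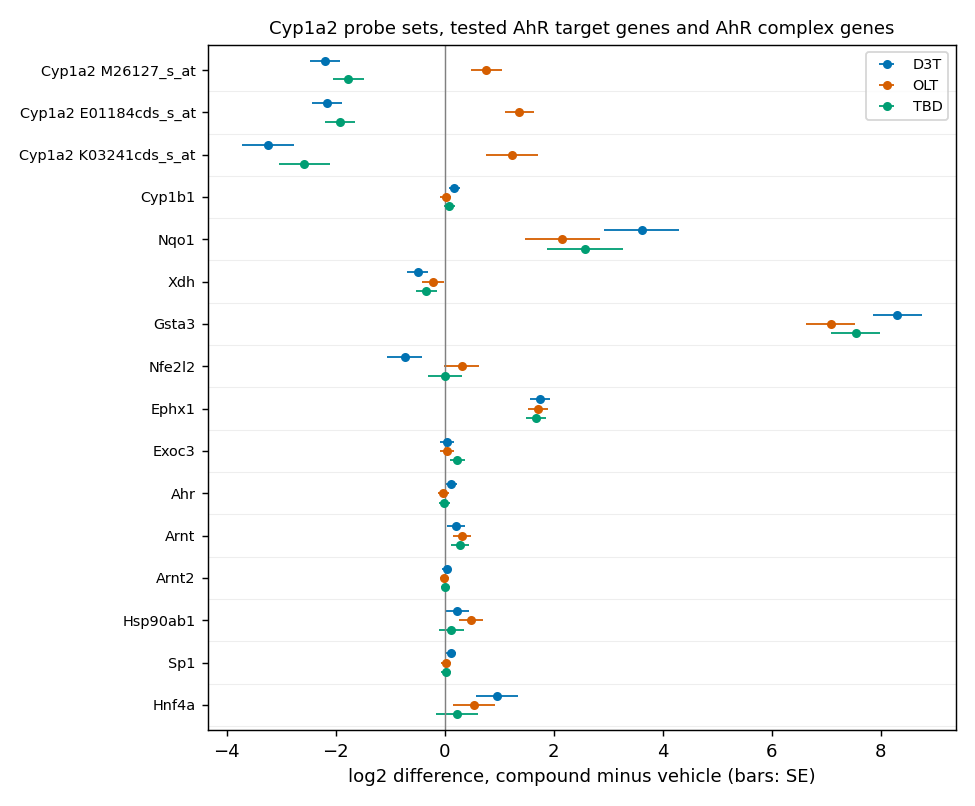
Log2 difference of D3T, OLT and TBD from vehicle with the SE of the fit, for the 3 Cyp1a2 probe sets, the 7 tested AhR target genes and the 6 tested genes of the AhR complex. Cyp1a2 has OLT above 0 and D3T and TBD below 0, while Nqo1, Gsta3 and Ephx1 have all 3 compounds above 0 and Ahr lies near 0.

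Among 33 other tested P450 genes of families 1 to 4, 2 rose and 9 fell with D3T, 4 rose and 3 fell with OLT, and 4 rose and 5 fell with TBD. Over all 3103 genes 4.61% rose and 13.1% fell with D3T, 2.61% rose and 8.93% fell with OLT, and 2.8% rose and 9.99% fell with TBD. The D3T total of 11 was 5 to 7 without any one of vehicle replicates 2, 3 or 4 or D3T replicates 1, 3 or 4, and the OLT total of 7 was 4 without vehicle replicate 2 or OLT replicate 4. Between TBD and OLT 0 of the 33 passed in limma (4 at an unadjusted p under 0.05). Their differences lay between -0.74 and 0.39. Of the 3103 genes, which leave out Cyp1a2, 0% passed there. The Cyp1a2 probe sets differed by -2.53 to -3.81 in that contrast.

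Cyp2b2, a target of the receptor CAR, grouped the compounds differently from Cyp1a2. It averaged 10.30 ± 0.26 with D3T, 12.32 ± 1.01 with OLT, 12.08 ± 0.81 with TBD and 9.95 ± 0.31 with vehicle. It rose 5.16-fold with OLT (limma adjusted p = 0.00316) and 4.36-fold with TBD (adjusted p = 0.00535), and differed by 0.35 ± 0.44 with D3T (adjusted p = 0.641). So TBD lay with OLT for Cyp2b2 and with D3T for Cyp1a2. The direct difference of D3T from OLT was -2.02 (adjusted p = 0.0425), but this call was lost without any one vehicle or D3T array, without OLT replicate 1, 3 or 4 or without TBD replicate 2 (adjusted p of 0.0543 to 0.124). For D3T against TBD it was -1.77 (adjusted p = 0.0999), which passed without OLT replicate 2 (adjusted p = 0.041).

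Besides Cyp2b2, Cyp2c6v1, Cyp3a2 and Cyp3a23-3a1 were lower with D3T than with OLT, and these 3 were also lower with D3T than with TBD. These names were chosen with the values in view. Over all 3103 genes 0.29% were higher and 0.548% lower for D3T against OLT, and 0.193% were higher and 0.387% lower for D3T against TBD. Cyp3a2, a steroid-oxidising enzyme, was 5.28-fold lower with D3T than with OLT (limma adjusted p = 1.2e-05) and 4.46-fold lower than with TBD (adjusted p = 0.000101). Cyp3a23-3a1 was 3.05-fold lower than with OLT (adjusted p = 0.000189) and 2.62-fold lower than with TBD (adjusted p = 0.00162), a call lost in a fit of the 8 D3T and TBD arrays (adjusted p = 0.063). Cyp2c6v1 was 1.74-fold lower than with OLT (adjusted p = 0.0272) and 1.78-fold lower than with TBD (adjusted p = 0.0328). The Cyp2c6v1 call against OLT was lost without D3T replicate 1, 3 or 4 or OLT replicate 1, 3 or 4 (adjusted p of 0.0676 to 0.0889), and that against TBD without D3T replicate 1, 3 or 4 or TBD replicate 2, 3 or 4 (adjusted p of 0.0639 to 0.106). Against vehicle, a second Cyp2c6v1 probe set, M14776_f_at, differed by 0.41 with D3T where the first differed by -0.43. The 4 Cyp3a23-3a1 probe sets differed by -1.61 to -0.13 with D3T, by 0.0017 to 1.07 with OLT and by 0.016 to 0.85 with TBD. On the one used, X64401cds_s_at, D3T lay below vehicle (-0.54) and OLT (1.07) and TBD (0.84) above it (limma adjusted p = 0.0461, 0.0018 and 0.00589). On no other Cyp3a23-3a1 probe set did both D3T and OLT pass. Probes of close P450 paralogs can cross-hybridise, so single members of these families are uncertain.

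Cyp2a1, a testosterone hydroxylase, rose with all 3 compounds, 3.45-fold with D3T, 2.37-fold with OLT and 2.20-fold with TBD (limma adjusted p = 0.000525, 0.00877 and 0.0129). The TBD call was lost in a fit of the 8 arrays of those groups (adjusted p = 0.0571). Cyp4a1, a fatty acid hydroxylase and PPARα target, was 2.72-fold, 2.01-fold and 3.38-fold lower (adjusted p = 0.00229, 0.0283 and 0.000894). Its OLT call was lost without vehicle replicate 2, 3 or 4 or OLT replicate 2 or 4 (adjusted p of 0.052 to 0.0951). On another Cyp4a1 probe set, X07259cds_s_at, TBD alone passed (-1.23, adjusted p = 0.0343), with -0.32 for D3T and -0.31 for OLT. Neither gene had OLT on the other side of vehicle from D3T and TBD.

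**Figure D4:**
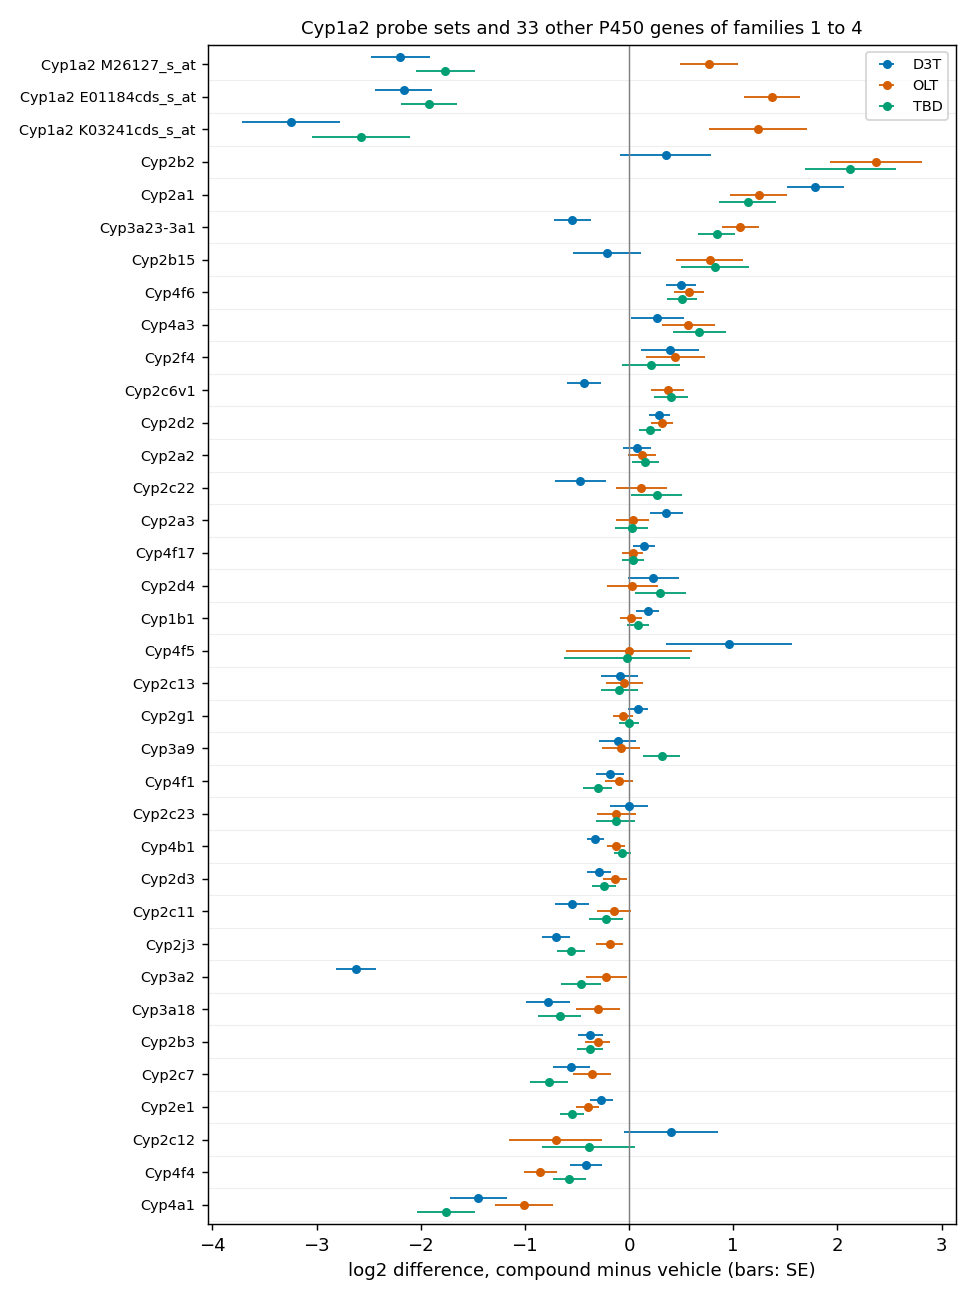
Log2 difference of D3T, OLT and TBD from vehicle with the SE of the fit, for the 3 Cyp1a2 probe sets and 33 other tested P450 genes. For Cyp2b2 the OLT and TBD points lie to the right of the D3T point, while for Cyp1a2 the D3T and TBD points lie together on the left.

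CYP1A2 receives its electrons from cytochrome P450 reductase, Por. Por was lower with all 3 compounds, including OLT, where Cyp1a2 was higher, by 2.38-fold with D3T, 2.86-fold with OLT and 3.14-fold with TBD (limma adjusted p = 0.00675, 0.00322 and 0.00156). The Por probe set rc_AI137856_s_at did not pass with D3T (-1.22, adjusted p = 0.179). Of 12 tested genes of P450 electron transfer and heme metabolism, 1 fell with D3T, 3 with OLT and 2 with TBD, and 0 rose, against 13.1%, 8.93% and 9.99% of all genes that fell. Their medians were 0.07, 0.08 and 0.03. The count with D3T was 2 without vehicle replicate 1, OLT replicate 2, 3 or 4 or TBD replicate 2 or 3, and 3 without TBD replicate 4. The count with OLT was 1 without vehicle replicate 2 or 4 or OLT replicate 2 or 3, and the count with TBD was 1 without vehicle replicate 2 or 4 or TBD replicate 2 and 4 without TBD replicate 4.

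Genes that, like Cyp1a2, are highest in hepatocytes around the central vein were compared in the same way. Between compounds 0 of the 10 tested pericentral genes passed in limma. At an unadjusted p under 0.05, 0 differed for D3T against OLT, 1 for TBD against OLT and 2 for D3T against TBD. Over all 3103 genes, which leave out Cyp1a2, 0.29% were higher and 0.548% lower for D3T against OLT, and 0% passed for TBD against OLT. For D3T against TBD 0.193% were higher and 0.387% lower. With shares this low, 0 of 10 says little about these genes. The differences of the 10 genes lay between -0.40 and 0.50 for D3T against OLT and between -0.75 and 0.54 for TBD against OLT. Against vehicle, 1 rose and 3 fell with D3T, 1 rose and 3 fell with OLT, and 1 rose and 5 fell with TBD, with medians of -0.38, -0.37 and -0.57. Over all genes 4.61% rose and 13.1% fell with D3T, 2.61% and 8.93% with OLT, and 2.8% and 9.99% with TBD. The OLT count was 2 without vehicle replicate 2 or OLT replicate 2 or 3. Oat, ornithine aminotransferase, averaged 7.71 ± 0.83 with D3T, 7.21 ± 0.80 with OLT and 7.74 ± 0.92 with TBD, against 9.87 ± 0.29 with vehicle. It was 4.47-fold, 6.34-fold and 4.37-fold lower (limma adjusted p = 0.00675, 0.00279 and 0.01), so it fell with OLT as well. Of 12 tested periportal genes, 4 rose and 0 fell with D3T, 1 rose and 5 fell with OLT, and 1 rose and 1 fell with TBD, with medians of -0.13, -0.53 and -0.32, to be read against the same shares over all genes. The D3T count was 2 without vehicle replicate 1 or 3 or D3T replicate 1 or 2, the OLT count was 3 without vehicle replicate 4, 2 without OLT replicate 2 and 1 without OLT replicate 3, and the TBD count was 4 without vehicle replicate 4 or TBD replicate 4. Sds, serine dehydratase, was 4.64-fold lower with OLT (adjusted p = 0.00473) and differed by -0.28 with D3T and -0.87 with TBD (adjusted p = 0.707 and 0.244).

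The genes whose values followed those of M26127_s_at most closely over 16 arrays, among 3103 genes, were Cyp2j3 (Pearson r = 0.757), Maob (0.737), Baat (0.736), Gfra1 (0.734) and Hbp1 (0.730). The most opposite were Haao (-0.758), Mybbp1a (-0.753) and Gstp1 (-0.741). After removal of the group means r was 0.133 for Cyp2j3, 0.423 for Maob, 0.511 for Baat, 0.234 for Gfra1 and 0.287 for Hbp1, and -0.489 for Haao, -0.427 for Mybbp1a and 0.122 for Gstp1. Cyp2j3, a fatty acid epoxygenase, differed from vehicle by -0.70 with D3T, -0.19 with OLT and -0.56 with TBD (limma adjusted p = 0.00217, 0.51 and 0.0126), so its OLT difference was not above 0. Another Cyp2j3 probe set, U40000_at, went the other way, with 0.43, 0.12 and 0.12 (adjusted p = 0.0456, 0.835 and 0.816). None of the 5 genes had an OLT mean above the vehicle mean. Gstp1, a glutathione transferase, rose with all 3 compounds, by 6.38 with D3T, 2.20 with OLT and 4.27 with TBD (adjusted p = 1.1e-05, 0.0252 and 0.000336).

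The labelled tissue was borne out by its markers, since all 7 hepatocyte markers were tested and lay above the array median on 16 of 16 arrays. Their summed log2 value was 95.0 to 96.2 in D3T, 93.3 to 95.4 in OLT, 94.4 to 96.0 in TBD and 95.4 to 96.6 in vehicle livers. Of these 7 markers, 2 rose and 1 fell with D3T, 0 rose and 1 fell with OLT, and 0 passed with TBD. Over all genes 4.61%, 2.61% and 2.8% rose with D3T, OLT and TBD. Of 8 macrophage markers, 5 were tested and 4 of these fell with each compound, with sums of 34.3 to 35.5 in D3T, 32.8 to 35.3 in OLT, 33.6 to 36.0 in TBD and 38.8 to 41.1 in vehicle livers. Over all genes 13.1%, 8.93% and 9.99% fell with D3T, OLT and TBD. The macrophage sum was lower with all 3 compounds and Cyp1a2 with 2 of them. The part of macrophages in the Cyp1a2 result was not tested. Of 7 stellate cell markers 4 were tested, and 2 fell with D3T, 1 with OLT and 2 with TBD. The sum of the 6 stellate markers on the array was 25.1 to 26.6 in D3T, 26.8 to 32.9 in OLT, 27.0 to 30.5 in TBD and 30.2 to 32.4 in vehicle livers, so that all D3T arrays lay below the vehicle arrays while OLT and TBD arrays overlapped them, and Des and Acta2 lay above the array median on 0 arrays. Of 6 endothelial markers 4 were tested, and 1 fell with D3T, 0 with OLT and 1 with TBD, with sums of 17.3 to 19.9, 18.7 to 22.2, 17.2 to 20.04 and, in vehicle livers, 19.7 to 20.7. Pecam1 and Vwf lay above the array median on 0 arrays. Of 5 cholangiocyte markers 1 was tested and 0 fell. The stellate and endothelial calls were fewer with OLT than with D3T and TBD, and the part of these cell types in the Cyp1a2 result was not tested. Array medians lay between 3.27 and 3.58. Between replicates of a group r over the probe sets, which are not independent of each other, was 0.983 to 0.997.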

How the data were processed

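RNA from the livers of 16 rats was hybridised, with a biotin label and 1 colour, to Affymetrix arrays. The table that the authors deposited holds log2 values for 8740 probe sets. Per the submitters' processing notes they are GCRMA values (version not given in the sources used here). In its usual form this method corrects background by probe sequence, which compresses dim values, so the fold of a dim probe set depends on that step. The table held 0 columns of no sample. Scan dates and detection calls were not used here, and the number of arrays limits the precision.

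Tests covered the 5323 probe sets that exceeded the 40th percentile of the array on 4 or more arrays. The fit used limma 3.58.1 (R 4.3.3), with 1 mean per group and all 16 arrays (residual df 12, prior df 2.41, median residual SD 0.195), two-sided, with Benjamini-Hochberg adjusted p under 0.05 over all 5323. For gene counts, the brightest tested probe set stood for each of 3103 genes with 1 symbol, and Cyp1a2 was left out. The fit was tested on simulated data. Of the symbols, 6985 were matched through Entrez ID to the GRCr8 gene table, used for names and neighbours, and the upstream sequence came from RefSeq (GRCr8), where Cyp1a2 was matched by symbol. Python 3.11.15 drew the figures.

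Members, lists and tests were chosen with earlier results of these data known. Named genes were every Cyp1a probe set, AhR list genes that passed against vehicle, Ahr and Arnt, up to 3 genes per other list by size of difference with OLT or TBD, and the genes most like M26127_s_at. Within that rule 1 gene was named for the pericentral, periportal and P450 partner lists and 3 for the other P450 genes, settled after values were seen.

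Animals were assigned to groups singly, so p-values reflect the variation among arrays from different animals. Replicate numbers were checked for pairing: 8 of 24 same-numbered array pairs had deviations correlated above 0.1 (range -0.524 to 0.323). This gave no clear sign of pairing, but weak correlations cannot exclude it, and the main fit left pairing out. Alternatives were other filters and scalings, limma's prior options, array weights, fits of 8 arrays, the replicate block, averages over the probe sets of a gene and leaving out each array.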

Additional observations from a re-analysis of the deposited data

Results flagged for a closer look

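Of 104 groups of 4 arrays looked at, 8 held an array that stood far from the other 3 by Dixon's test, where chance gives about 1 in 20. Cyp1a2 (M26127_s_at) was 9.836 in TBD replicate 4, above the other TBD arrays, the nearest of which was 9.362. Nqo1 was low in D3T replicate 3 at 7.293, against 8.133 for the nearest D3T array. Oat was low in vehicle replicate 2 at 9.443, Cyp2a1 in vehicle replicate 1 at 7.027 and Mybbp1a in vehicle replicate 2 at 4.536. Cyp2c6v1 was high in vehicle replicate 3 at 13.34, Cyp3a23-3a1 was low in D3T replicate 3 at 10.25, and Gfra1 was low in OLT replicate 2 at 4.105.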

How the results depend on the processing

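The 9 differences of Cyp1a2 from vehicle kept their direction, and none moved by more than the spread between replicates, under 28 alternatives each. Filters, prior options and leaving out arrays of other groups cannot change a difference of group means. Leaving out an array of the groups compared cannot turn the direction either, since these groups did not overlap. The count is therefore no support for the pattern. For single named genes, the genes most like Cyp1a2 and the promoter motif counts, settings other than leaving out 1 array gave 526 unchanged results. The threshold was lost in 20 cases and gained in 10, while 3 results moved and 7 reversed. For named genes unchanged means the same direction and side of the threshold. The correlations and motif counts have no threshold. On E01184cds_s_at D3T minus TBD turned to 0.0687 with array weights and ranged from -0.421 to 0.0545 when single arrays were left out. Ahr lay so near 0 that its OLT difference was 0.0119 with a covariate for each array's 40th percentile and 0.0232 without both OLT replicate 1 and TBD replicate 4, and ranged from -0.0981 to 0.0402 without single arrays. Its TBD difference was 0.000923 after renewed quantile normalization, 0.00126 with medians centred and 0.0192 with the covariate, and ranged from -0.0781 to 0.0603 without single arrays. Sds with D3T was 0.00295 over the mean of its probe sets, Cyp2b2 in TBD minus OLT ranged from -0.661 to 0.134 without single arrays, and the r of Gstp1 was 0.122 after removal of group means.

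Counts of passing probe sets depended on the settings. With array weights they were 2263 for D3T, 1066 for OLT, 1333 for TBD, 171 for D3T minus OLT and 152 for D3T minus TBD, against 981, 600, 693, 57 and 35. At an adjusted p under 0.01 they were 495, 261, 318, 23 and 12. With the covariate 1741 passed for D3T, 149 for D3T minus OLT and 117 for D3T minus TBD. With medians centred 361 passed for OLT, 426 for TBD and 13 for D3T minus TBD, and in fits of 8 arrays 361 for TBD and 8 for D3T minus TBD. For D3T minus OLT 92 passed after quantile normalization and 88 without both OLT replicate 1 and TBD replicate 4. Leaving out single arrays gave 30 to 84 for D3T minus OLT, 19 to 41 for D3T minus TBD and 3 to 6 for TBD minus OLT. The share of calls that were higher was 33.5%, 30% and 27.3% for D3T, OLT and TBD as deposited, 52.9%, 46.5% and 44.9% after quantile normalization, 43.8%, 41.8% and 33.6% with medians centred, and 55.3%, 33.6% and 30.4% with the covariate.

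Among AhR target genes array weights gave 6 calls with D3T and 1 for D3T minus OLT. Among AhR complex genes they gave 3, 1 and 1 for D3T, OLT and TBD, the covariate 2 with D3T, and quantile normalization, 8 arrays, or leaving out both OLT replicate 1 and TBD replicate 4 gave 1 with D3T (0 to 1 without single arrays). Pericentral OLT counts were 2 at 0.01, centred or over mean probe sets (2 to 5 without single arrays), and TBD 3 over mean probe sets. Periportal D3T counts were 1 at 0.01 or centred, 2 without a filter and 7 with weights (2 to 5); OLT 1 at 0.01 or centred (1 to 8); TBD 10 with weights and 5 without both arrays (2 to 4). Partner and heme D3T counts were 2 with the median filter, trend, covariate, quantile normalization or mean probe sets and 3 with weights, 8 arrays or without both arrays (1 to 3); OLT 1 at 0.01 or centred (1 to 3); TBD 1 at 0.01, centred, quantile or 8 arrays and 4 with weights or without both arrays (1 to 4). Other P450 counts were 4 at 0.01 with each compound and 22, 11 and 17 with weights (D3T 5 to 12, OLT 4 to 9 without single arrays). The replicate block gave 888, 526 and 630 calls for D3T, OLT and TBD and 55, 3 and 29 between compounds; under it Cyp4a1 with OLT (adjusted p = 0.0515), Cyp2b2 in D3T minus OLT (0.0928) and Cyp2c6v1 in D3T minus TBD (0.0526) no longer passed, and own number correlated best for 8 of 24 pairs. Of these changes the cause was not tested. Averaging the probe sets of a gene does not apply to counts over all probe sets.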

Other observations

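A probe set with no gene name in the annotation used here, E00717UTR#1_s_at, was singled out after its values were seen. It had a log2 value of 7.74 on OLT replicate 1, while on the other 15 arrays it lay between 2.94 and 3.23, below the median of each of those arrays. OLT replicate 1 is also the array with the highest Cyp1a1 value, 0.96 above the highest of the other 15 arrays. Of 8740 probe sets, 5 were highest on that array by at least 1 log2 unit. On the Cyp1a2 probe sets that array was the highest OLT array on E01184cds_s_at (12.53) and K03241cds_s_at (11.77), and was the second highest on M26127_s_at (12.11).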
